A study of Homo sapiens with 12 samples.

Results

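The 34 genes described here are genes for which RBFOX-regulated exons are known, among them CTTN, NUMB, MEF2D, TSC2, EPB41 and ENAH. Their members are cassette exons, which are exons that can be included in or skipped from the mature mRNA. A cassette exon of a listed gene was a member if at least 20 reads covered it in each of 12 libraries, a rule that uses no PSI value, although the gene list was drawn up with earlier results of these data known. That left 906 exons in 34 of 34 genes, 7 to 55 per gene, out of 1119 cassette exons of these genes in the deposited table and 116131 cassette exons of all genes with the same coverage. The members nearest the bound had 20 reads in their shallowest library (2 exons of LIMCH1 and 1 of FN1), and exons of LIMCH1, FN1 and KIF13A with 18 reads fell just outside it. The files do not mark which exon of a gene is the one reported to depend on RBFOX, so every exon with coverage is counted.

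RBFOX1, RBFOX2 and RBFOX3 are splicing factors of neurons, heart and muscle, and RBFOX2 is also made in many other cells. They bind the RNA letters GCAUG, most often with a U before them. Bound in the intron downstream of an exon they mostly raise its inclusion, and bound upstream of it or inside it they mostly favour skipping. Many of their target exons are in frame and alter cytoskeletal, adhesion, membrane transport and transcription proteins.

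All libraries came from HEK293T, a transformed human embryonic kidney line, 48 hours after transient transfection (200 ng of each of the vectors, 1 for the effector and 1 for the guide RNA). The first effector was dCasRx alone, a catalytically dead RNA-guided nuclease. In dCasRx-RBM25 it is joined to RBM25, a splicing factor. In RBFOX1N-dCasRx-C it takes the place of the RNA-binding domain of RBFOX1, between that protein's N- and C-terminal parts. The 6 groups of 2 biological replicates were dCasRx with a nontargeting guide (dCasRx_NT), RBM25 with a nontargeting, a MAPT or a CD46 guide (RBM25_NT, RBM25_MAPT, RBM25_CD46), and RBFOX1N with a nontargeting or a MAPT guide (RBFOX1N_NT, RBFOX1N_MAPT). The MAPT guide is directed at exon 10 of MAPT and the CD46 guide at exon 13 of CD46. Every group, the controls included, thus carries a dCasRx protein and a guide, and untransfected cells were not analysed here.

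Total counts ranged from 32487927 to 53985468 per library. RBM25 took 4.08 to 5.69% of the counts in the 6 RBM25 libraries and 0.02 to 0.0381% elsewhere. RBFOX1 was counted at 0 to 6 reads in all 12 libraries, the RBFOX1N ones included, so its count does not check the RBFOX1N labels. The first principal component of log2 CPM (library-scaled read counts; 41.5% of the variance) put the 4 RBFOX1N libraries at 45.3 to 54.3 and the others at -34.7 to -3.9. On the second component (18.2%) dCasRx_NT replicate 2 stood at 70.1 and replicate 1 at 30.3, with the other 10 libraries between -15.2 and -3.8, so comparisons with dCasRx are also given without each of these libraries. Of 7 genes often expressed in HEK293T, 7 passed the filter on low counts; of these KRT8 stood at 65.3 to 67.3 CPM with RBFOX1N and at 25.3 to 30.4 CPM elsewhere. Of 4 blood markers none passed the filter, and their summed level stayed at or under 0.32 CPM. The 4 neuron markers, by contrast, all passed, with summed levels of 20.1 to 26.5 CPM, while those of endothelium, muscle and liver summed to under 2 CPM in every library and COL1A1 was the 1 of 3 fibroblast markers that passed. Their part in the results was not tested.

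The sequences of 8 called exons follow here, since RBFOX proteins read short RNA letters. Exons that rose and exons that fell with RBFOX1N are among them, and so is a pair of near copies. In RBFOX1N-dCasRx-C, dCasRx replaces the RNA-binding domain of RBFOX1, and whether any effector bound these exons was not tested. The sequences were read from the GENCODE 29 coding transcripts (GRCh38, the build of the coordinates, hg38). They are on the gene's strand, 5′ to 3′, in DNA letters, with any GCATG in capitals.
NUMB, 33 nt, chr14:73316390-73316422, minus strand: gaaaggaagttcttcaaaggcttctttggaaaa
GOLIM4, 84 nt, chr3:168040786-168040869, minus strand: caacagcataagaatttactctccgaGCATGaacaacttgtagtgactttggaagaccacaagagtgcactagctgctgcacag
CTTN, 111 nt, chr11:70421470-70421580, plus strand: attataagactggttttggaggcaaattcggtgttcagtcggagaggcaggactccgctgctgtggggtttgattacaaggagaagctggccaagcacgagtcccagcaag
LRRFIP2, 72 nt, chr3:37091467-37091538, minus strand: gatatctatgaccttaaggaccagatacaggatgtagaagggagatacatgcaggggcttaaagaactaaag
BIN1, 129 nt, chr2:127057473-127057601, minus strand: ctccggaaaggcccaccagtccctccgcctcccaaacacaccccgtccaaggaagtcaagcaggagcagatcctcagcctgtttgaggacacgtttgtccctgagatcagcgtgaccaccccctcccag
EXOC1, 45 nt, chr4:55888888-55888932, plus strand: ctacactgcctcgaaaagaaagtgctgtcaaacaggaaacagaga

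EPB41 and EPB41L2, which code for related membrane skeleton proteins of the band 4.1 family, each hold a 63-nt exon at chr1:29060422-29060484 (plus strand) and chr6:130880144-130880206 (minus strand). These 2 exons are shown together because 50 of their 63 bases (79.4%) are identical, the last 26 without a break, and both fell with RBFOX1N. Identical bases are in capitals.
EPB41: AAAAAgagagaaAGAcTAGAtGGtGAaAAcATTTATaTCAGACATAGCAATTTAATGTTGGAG
EPB41L2: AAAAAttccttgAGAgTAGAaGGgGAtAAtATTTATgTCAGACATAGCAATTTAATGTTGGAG

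GCATG was searched in the exon only, on the gene's strand. It was found in 39 of 325 tested member exons with a sequence (12.0%) and in 11.26% of all tested cassette exons. Of the 27 member exons called in an effector comparison, 26 had a sequence and 3 held GCATG, in CAMK2G, GOLIM4 and PTPRF (11.5%). The introns beside the exons, where most RBFOX sites lie, were covered by transcripts over 200 bases for only 11.3% (upstream) and 11.9% (downstream) of the member exons, so the check of the flanks is void.

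Inclusion was measured as percent spliced in (PSI), the percent of informative reads that include the exon, and a difference in PSI is given in points. Of the 906 exons, 335 in 33 genes had enough reads of their less used form (24 over all libraries) to be tested. LIMCH1, an actin-associated protein, had none. Of the 571 untested exons 438 had a mean PSI over 95% and 133 under 5%. The tested exons had a median length of 111 nt, 12 were microexons of at most 27 nt, and 176 (52.5%) had a length that is a multiple of 3, against 37.4% of the 48824 cassette exons tested in all genes. Most were nearly constitutive: 218 had a mean PSI over 90% and 51 under 10%, and 66 lay between. An exon was called when the adjusted p was under 0.05 and mean PSI differed by at least 10 points.

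RBFOX1N lowered the inclusion of more of these exons than it raised, compared with dCasRx. Exons of MEF2D, CTTN, GOLIM4, LRRFIP2, PTPRF, EPB41, TSC2, EPB41L2, FMNL2, TJP1 and CLSTN1 fell by 10.1 to 27.7 points, and exons of NUMB, BIN1 and CAMK2G rose by 12.8 to 28.6 points. In all, 15 of 335 exons (4.48%) in 14 genes were called, 3 higher and 12 lower, where 1.73% of all tested cassette exons were called (0.721% higher, 1.01% lower). Of the 66 member exons with a mean PSI of 10 to 90%, 14 were called (21.2%), where 5.47% of all such cassette exons were. At an unadjusted p under 0.05 the share of members (72 exons, 21.5%) was close to that of all exons (19.8%), and the median absolute difference was 1.19 points for members and 1.51 points for all exons. Without dCasRx_NT replicate 1 the count was 8 and without replicate 2 it was 7. The exons of TSC2 (82 nt), PTPRF, CTTN, GOLIM4 and MEF2D were called without each library in turn. With limma on logit PSI 6 of the 15 were called, those of TSC2, PTPRF, TJP1, NUMB, GOLIM4 and MEF2D, and the exon of CTTN was not (limma adjusted p = 0.0641).

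Compared with RBM25, the balance turned: 19 exons (5.67%) in 16 genes were called, 13 higher and 6 lower with RBFOX1N, where 3.24% of all cassette exons were called (1.94% higher, 1.3% lower). Among exons with a mean PSI of 10 to 90% the share was 15 of 66 members (22.7%) and 11.6% of all. Another 44 member exons had an adjusted p under 0.05 with a difference under 10 points, 31 of them higher and 13 lower with RBFOX1N. The same count over all cassette exons is not given here, so this split cannot be read as a trait of the members. The median difference was 0.17 points for members and 0.09 points for all exons. The 2 comparisons share the RBFOX1N libraries. Leaving out single libraries gave 17 to 23 called exons, and 17 of the 19 were called each time. Limma on logit PSI also called 17 of the 19, but not the exons of ADD3 (limma adjusted p = 0.123) and NUMB (144 nt, limma adjusted p = 0.138).

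RBM25 itself passed the call against dCasRx in fewer of these exons. It lowered 5 exons (GOLIM4, MEF2A, TJP1, ITGA6 and TSC2) and raised 1 (EXOC1), 1.79% of 335, where 1.22% of all cassette exons were called (0.447% higher, 0.778% lower). This comparison shares the dCasRx libraries with the first. Among exons with a mean PSI of 10 to 90%, 4 of 66 members (6.06%) and 4.03% of all were called. Without the 10-point bound, which of the 2 fusions differed from dCasRx in more exons depended on the p threshold. At a quasi-binomial adjusted p under 0.05 there were 22 with RBM25 and 25 with RBFOX1N. At an unadjusted quasi-binomial p under 0.05 there were 88 (26.3%) with RBM25 and 72 (21.5%) with RBFOX1N. The RBM25 counts over all cassette exons at these thresholds are not given here. The member counts thus cannot be read as a trait of the members. The median absolute difference of RBM25 from dCasRx was 1.43 points for members and 1.52 points for all exons. The count of 6 became 3 without dCasRx_NT replicate 1 and 4 without replicate 2, and the exons of GOLIM4 and MEF2A were called without each library in turn. Limma on logit PSI called 4 of the 6, but not the exons of ITGA6 (limma adjusted p = 0.0951) and TSC2 (limma adjusted p = 0.0796).

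**Figure D1:**
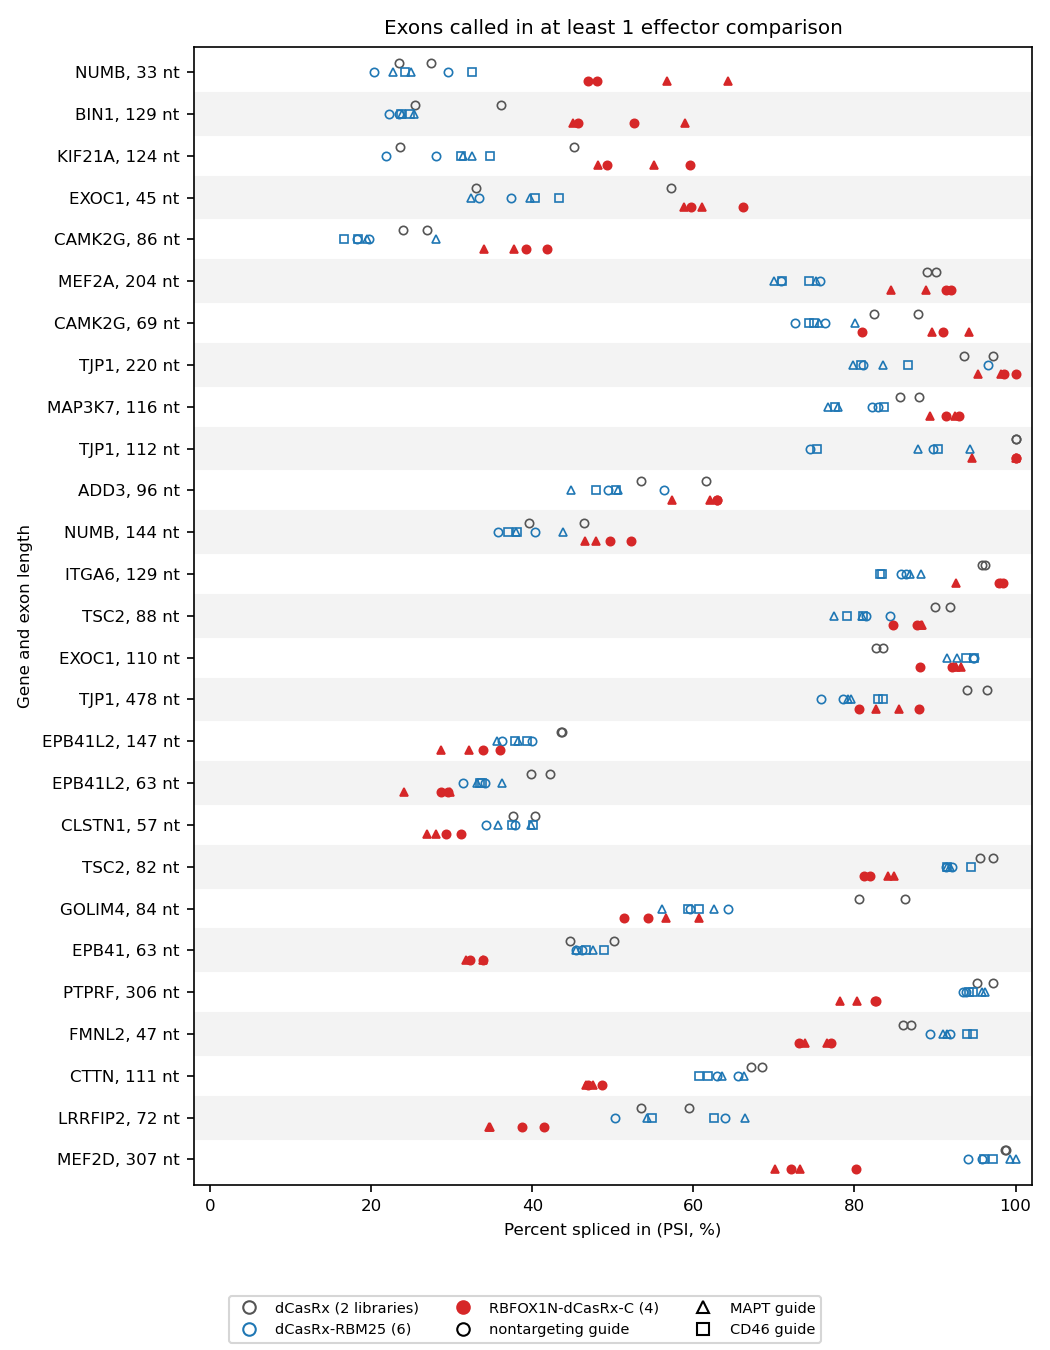
PSI in % (x axis) in each of the 12 libraries for the 27 exons called in at least 1 effector comparison (y axis, gene and exon length), with colour for the effector and shape for the guide. The 4 RBFOX1N libraries lie apart on the high side for NUMB (33 nt) and BIN1 and on the low side for MEF2D, CTTN and EPB41, while for GOLIM4 they overlap the RBM25 libraries and both lie under dCasRx.

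**Figure D2:**
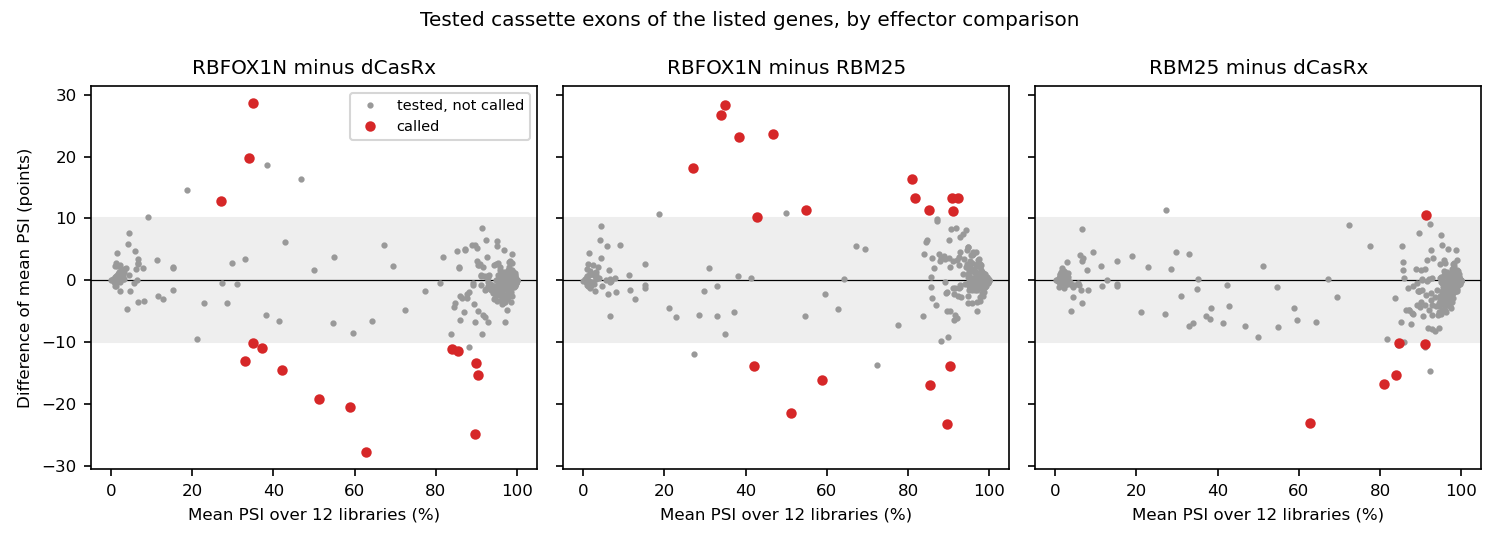
Difference of mean PSI in points (y axis) against mean PSI over 12 libraries in % (x axis) for the 335 tested exons in the 3 effector comparisons, with the band of under 10 points shaded. The called exons, 15, 19 and 6 from left to right, include none at the low end of PSI, and most tested exons lie above 90% near a difference of 0.

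Among the cytoskeleton and junction genes, 6 of 127 tested exons fell with RBFOX1N against dCasRx and none rose, where 1.01% of all cassette exons fell and 0.721% rose. CTTN encodes cortactin, which binds branched actin filaments. Its 111-nt exon, present in 1 annotated coding transcript and skipped in 2, had a PSI of 67.2 and 68.5% with dCasRx and of 60.7% (lowest), 63.2% (median) and 66.2% (highest) in the 6 RBM25 libraries. In the RBFOX1N libraries it was 46.9, 48.6, 46.6 and 47.5%. The 3 effectors did not overlap. The difference was -20.5 ± 1.63 points (SE) to dCasRx (quasi-binomial adjusted p = 1.81e-05) and -16.1 ± 1.17 to RBM25 (quasi-binomial adjusted p = 8.48e-07).

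The 63-nt exon of EPB41 stood at 50.1 and 44.7% with dCasRx, at 45.4 to 48.9% with RBM25 (median 46.4%) and at 33.9, 32.2, 33.8 and 31.7% with RBFOX1N. Only the RBFOX1N libraries stood apart, at -14.5 ± 2.18 points to dCasRx (quasi-binomial adjusted p = 0.00138) and -13.8 ± 1.43 to RBM25 (quasi-binomial adjusted p = 2.59e-05). The call to dCasRx was lost without dCasRx_NT replicate 1. Its near copy in EPB41L2 had 39.9 and 42.2% with dCasRx, 31.3 to 36.2% with RBM25 (median 33.6%) and 29.5, 28.6, 29.8 and 24.02% with RBFOX1N. Here the RBM25 libraries lay between the other effectors without overlap. The difference of RBFOX1N was -13.0 ± 2.23 points to dCasRx (quasi-binomial adjusted p = 0.00479) and -5.68 ± 1.51 to RBM25, under the 10-point bound. The call to dCasRx was lost without dCasRx_NT replicate 2. A second EPB41L2 exon of 147 nt, next to it in the genome, fell by 10.96 ± 2.10 points to dCasRx (quasi-binomial adjusted p = 0.00948), from 43.5 and 43.7% to 36.0, 33.8, 32.2 and 28.6%, a call lost without either dCasRx library or RBFOX1N_MAPT replicate 2. As neighbours in 1 transcript these 2 exons are not independent.

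FMNL2 is a formin that nucleates actin filaments. Its 47-nt exon, which no annotated coding transcript holds at these coordinates, had 87.0 and 86.1% with dCasRx, 89.3 to 94.7% with RBM25 (median 91.7%) and 73.1, 77.1, 73.9 and 76.5% with RBFOX1N. RBFOX1N was lowest and RBM25 highest, with no overlap. The differences of RBFOX1N were -11.4 ± 2.50 points to dCasRx (quasi-binomial adjusted p = 0.0308, lost without either dCasRx library, RBFOX1N_NT replicate 1 or RBFOX1N_MAPT replicate 1) and -16.9 ± 1.78 to RBM25 (quasi-binomial adjusted p = 1.04e-05).

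TJP1 encodes the tight junction scaffold ZO-1, and its 3 called exons were lower with RBM25 than with at least 1 other effector. The 478-nt exon, which no annotated coding transcript skips, was at 96.5 and 93.9% with dCasRx, at 75.8 to 83.5% with RBM25 (median 79.4%) and at 80.6, 88.0, 82.7 and 85.6% with RBFOX1N. Both fusions lay under dCasRx and overlapped each other. RBM25 differed from dCasRx by -15.3 ± 1.64 points (quasi-binomial adjusted p = 0.00158) and RBFOX1N by -11.03 ± 1.77 (quasi-binomial adjusted p = 0.00771), and both calls were lost without dCasRx_NT replicate 1, the second also without RBFOX1N_NT replicate 1. The exons of 220 nt and 112 nt were 13.3 points higher with RBFOX1N than with RBM25, at quasi-binomial adjusted p = 0.0023 and 0.0148. For the 220-nt exon the RBM25 libraries ran from 79.8 to 96.6% (median 82.3%) and the RBFOX1N ones from 95.3 to 100%, with overlap. For the 112-nt exon they ran from 74.5 to 94.3% and from 94.6 to 100%, on as few as 36 reads in a library, and this call was lost without either RBFOX1N_NT library. ADD3, a spectrin-capping adducin, held a 96-nt exon at 62.9, 62.9, 62.0 and 57.4% with RBFOX1N, against 44.8 to 56.4% with RBM25 (median 49.9%) and 53.4 and 61.5% with dCasRx. RBFOX1N lay above RBM25 by 11.4 ± 2.68 points (quasi-binomial adjusted p = 0.0119) and overlapped dCasRx.

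The other genes of this group had no called exon. For each, the exon with the mean PSI nearest 50% is given. The 111-nt exon of DST, a cytoskeletal linker, was at 92.1 and 92.1% with dCasRx, at 86.9 to 98.8% with RBM25 and at 79.8, 79.5, 83.0 and 83.4% with RBFOX1N. The RBFOX1N difference was -10.7 ± 3.12 points to dCasRx (quasi-binomial adjusted p = 0.127) and -9.78 ± 2.30 points to RBM25 (quasi-binomial adjusted p = 0.00803), which misses the call on size. SCRIB, a cell polarity scaffold, had a 63-nt exon with an RBFOX1N minus RBM25 difference of -7.20 ± 1.59 points (quasi-binomial adjusted p = 0.00635). Against dCasRx this exon differed by -1.66 ± 2.304 points with RBFOX1N (quasi-binomial adjusted p = 0.737). With RBM25 it differed from dCasRx by 5.54 ± 2.045 points (quasi-binomial adjusted p = 0.185). Of 19 tested SCRIB exons, 5 fell with RBM25 against dCasRx (to -9.91 points) at a quasi-binomial adjusted p under 0.05. With RBFOX1N against dCasRx 3 fell (to -8.65 points), and all were under the 10-point bound. As exons of the same gene they are not independent, and the same counts over all cassette exons are not given here. The SCRIB counts thus cannot be read as a trait of this gene. The 63-nt exon of ENAH, an actin regulator of the Ena/VASP family, was at 3.57 to 5.87% in all 12 libraries and that of SPTAN1, a spectrin chain, with 15 nt, at 12.5 to 21.98%. The 155-nt exon of MACF1, a further linker of actin and microtubules, ran from 26.9 to 54.2% on as few as 28 reads, with an RBFOX1N minus dCasRx difference of -5.61 ± 9.35 points, so a change of 10 points was not detectable at this depth.

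Surface, adhesion and matrix genes had 2 called exons of 53 for RBFOX1N against dCasRx, both lower (1.01% of all cassette exons were called lower), and 1 for RBM25 against dCasRx, in ITGA6 (0.778% of all lower). PTPRF is a receptor tyrosine phosphatase. Its 306-nt exon (chr1:43597748-43598053, plus strand), which holds GCATG at 2 places, was at 95.2 and 97.2% with dCasRx, at 93.5 to 96.2% with RBM25 (median 94.5%) and at 82.5, 82.7, 78.3 and 80.3% with RBFOX1N. RBFOX1N stood apart from both, by -15.3 ± 1.07 points from dCasRx (quasi-binomial adjusted p = 1.84e-05) and -13.8 ± 0.934 from RBM25 (quasi-binomial adjusted p = 2.04e-07). CLSTN1 encodes calsyntenin-1, a membrane protein that links cargo to kinesin. Its 57-nt exon was at 40.3 and 37.6% with dCasRx, at 34.3 to 40.1% with RBM25 (median 37.6%) and at 31.1, 29.2, 26.96 and 28.1% with RBFOX1N. The RBFOX1N libraries lay under all others, and the difference of -10.1 ± 2.33 points to dCasRx (quasi-binomial adjusted p = 0.0243) just passed the bound and was lost without either dCasRx library or either RBFOX1N_MAPT library. That of -8.67 ± 1.47 to RBM25 (quasi-binomial adjusted p = 0.00145) did not pass it. A 196-nt exon of CLSTN1, nearest 50% in that gene, ran from 45.2 to 63.7% with overlapping groups and was not called.

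ITGA6, an integrin chain that binds laminin, had a 129-nt exon at 96.2 and 95.8% with dCasRx and at 98.0, 98.4, 98.2 and 92.7% with RBFOX1N. RBM25 stood apart at 83.2 to 88.2% (median 86.1%). The RBM25 minus dCasRx difference was -10.3 ± 2.08 points (quasi-binomial adjusted p = 0.0445), a call lost without each library in turn, and RBFOX1N was 11.1 ± 1.68 points over RBM25 (quasi-binomial adjusted p = 0.000919). A separate ITGA6 exon of 130 nt ran from 14.5 to 46.7% on as few as 26 reads and was not called.

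For 5 other genes of this group no exon was called. The 168-nt exon of APLP2, a relative of the amyloid precursor protein, was at 24.5 to 25.7% with RBFOX1N and 27.3 to 33.6% with RBM25, a difference of -5.52 ± 0.777 points (quasi-binomial adjusted p = 0.000353) under the bound. The 57-nt exon of APP, the amyloid precursor protein itself, was at 28.0 and 25.2% with dCasRx, 27.1 to 32.01% with RBFOX1N and 29.6 to 32.3% with RBM25. The insulin receptor gene INSR had a single tested exon, of 36 nt, at 1.82 to 7.69% in all libraries. CD47, a surface ligand that restrains phagocytosis, had a 25-nt microexon at 15.5 and 8.49% with dCasRx and 33.6, 32.7, 18 and 22.4% with RBFOX1N, a difference of 14.7 ± 5.13 points (quasi-binomial adjusted p = 0.143) on as few as 36 reads. FN1, fibronectin, had a 126-nt exon at 48.1 to 69.7% whose groups overlapped throughout.

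**Figure D3:**
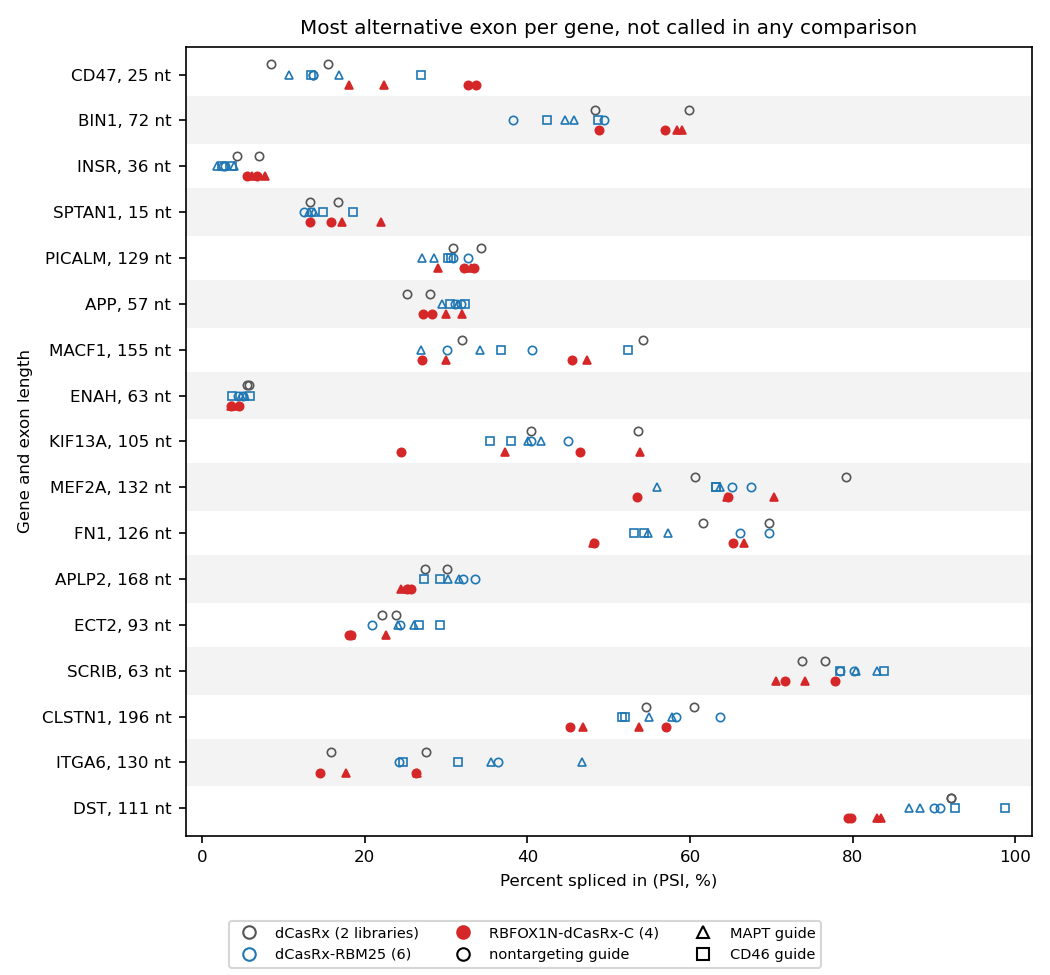
PSI in % (x axis) in each of the 12 libraries for the tested exon nearest 50% of the 17 genes where that exon was not called (y axis, gene and exon length), with colour for the effector and shape for the guide. DST and SCRIB show RBFOX1N at or near the low end, in SCRIB with overlap of dCasRx. For MACF1, KIF13A and FN1 the libraries of 1 effector spread over more than 15 points.

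The signalling genes held the largest rise. NUMB encodes an adaptor that inhibits Notch and takes part in endocytosis. Its 33-nt exon, present in 10 annotated coding transcripts and skipped in 7, was at 27.5 and 23.4% with dCasRx and at 20.4 to 32.5% with RBM25 (median 24.5%). With RBFOX1N it was at 47.0, 48.1, 56.7 and 64.3%, the last 2 with the MAPT guide. RBFOX1N stood apart from both, by 28.6 ± 4.68 points from dCasRx (quasi-binomial adjusted p = 0.00679, lost without either dCasRx library) and by 28.3 ± 3.31 from RBM25 (quasi-binomial adjusted p = 7.34e-05). The 144-nt exon of NUMB was at 49.7, 52.2, 46.5 and 47.9% with RBFOX1N and at 35.7 to 43.8% with RBM25 (median 38.0%), a difference of 10.3 ± 1.96 points (quasi-binomial adjusted p = 0.00315) that was lost without 3 of the libraries in turn (RBM25_NT replicate 2, RBM25_CD46 replicate 2 and RBFOX1N_NT replicate 2).

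CAMK2G, the gamma chain of the calcium and calmodulin dependent kinase II, had 2 called exons. The 86-nt exon, which no annotated coding transcript holds at these coordinates and 6 skip, was at 23.9 and 26.9% with dCasRx, 16.5 to 28.0% with RBM25 (median 18.9%) and 41.8, 39.2, 37.7 and 34% with RBFOX1N. RBFOX1N was higher without overlap, by 12.8 ± 3.15 points to dCasRx (quasi-binomial adjusted p = 0.0436, lost without any of 6 libraries but RBFOX1N_MAPT replicate 2) and by 18.2 ± 2.10 to RBM25 (quasi-binomial adjusted p = 5.09e-05). The 69-nt exon was 13.3 ± 2.53 points over RBM25 (quasi-binomial adjusted p = 0.0033) at 91.0, 80.9, 94.3 and 89.7%, against 72.7 to 80.0%. Of 5 CAMK2G exons with an adjusted p under 0.05 in this comparison, all 5 were higher with RBFOX1N. Exons of 1 gene are not independent. Of all cassette exons 1.94% were called higher and 1.3% lower in this comparison, with the 10-point bound.

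TSC2 encodes tuberin, which restrains the growth kinase mTORC1. Its 82-nt exon (chr16:2062972-2063053), held by 17 annotated coding transcripts and skipped by none, was at 95.6 and 97.2% with dCasRx, 91.4 to 94.4% with RBM25 (median 91.7%) and 81.9, 81.2, 84.9 and 84.2% with RBFOX1N. The 3 effectors did not overlap. The difference was -13.4 ± 1.30 points to dCasRx (quasi-binomial adjusted p = 0.000289) and -9.11 ± 1.16 to RBM25 (quasi-binomial adjusted p = 8.52e-05). Of 9 TSC2 exons with an adjusted p under 0.05 between the fusions, 7 were higher with RBFOX1N, by up to 9.97 points. As exons of 1 gene they are not independent, and the same count over all cassette exons is not given here. The 88-nt exon was at 91.8 and 89.98% with dCasRx, 77.5 to 84.4% with RBM25 (median 81.0%) and 84.8, 87.8, 88.3 and 88.3% with RBFOX1N. RBM25 differed from dCasRx by -10.2 ± 1.58 points (quasi-binomial adjusted p = 0.00754), a call lost without either dCasRx library, RBM25_MAPT replicate 1 or RBM25_CD46 replicate 2.

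LRRFIP2, an adaptor of Wnt and Toll-like receptor signalling, had a 72-nt exon at 53.4 and 59.5% with dCasRx, 50.3 to 66.4% with RBM25 (median 58.7%) and 41.5, 38.7, 34.7 and 34.5% with RBFOX1N. RBFOX1N lay under all other libraries, at -19.1 ± 4.32 points to dCasRx (quasi-binomial adjusted p = 0.0284, lost without any of 6 libraries but RBFOX1N_NT replicate 1) and -21.4 ± 3.12 to RBM25 (quasi-binomial adjusted p = 0.000608). MAP3K7 encodes the kinase TAK1. Its 116-nt exon was at 93.0, 91.4, 89.3 and 92.5% with RBFOX1N, 76.8 to 83.7% with RBM25 (median 80.0%) and 88.0 and 85.6% with dCasRx, and RBFOX1N exceeded RBM25 by 11.4 ± 1.18 points (quasi-binomial adjusted p = 3.89e-05). ECT2, which acts in cell division, had no called exon, and the RBFOX1N minus RBM25 difference of its 93-nt exon was -5.92 ± 1.67 points (quasi-binomial adjusted p = 0.0358).

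Both transcription factors of the list, the MADS box proteins MEF2A and MEF2D, had a called exon, but with different effectors. The 307-nt exon of MEF2D (chr1:156467993-156468299, minus strand), held by 4 annotated coding transcripts and skipped by none, was at 98.8 and 98.7% with dCasRx and 94.1 to 100% with RBM25 (median 96.6%). With RBFOX1N it was at 80.2, 72.1, 73.3 and 70.1%. RBFOX1N stood apart by -24.9 ± 1.60 points from dCasRx (quasi-binomial adjusted p = 4.94e-05) and -23.2 ± 1.54 from RBM25 (quasi-binomial adjusted p = 2.46e-07). The 204-nt exon of MEF2A was at 90.1 and 89.0% with dCasRx and 91.3, 92.0, 84.5 and 88.9% with RBFOX1N, which overlapped. RBM25 stood apart at 70.1 to 75.7% (median 72.7%), by -16.7 ± 2.10 points from dCasRx (quasi-binomial adjusted p = 0.00221), and RBFOX1N was 16.3 ± 1.62 points over RBM25 (quasi-binomial adjusted p = 1.74e-05). The 132-nt exon of MEF2A, at 53.5 to 79.1% in all libraries, was not called.

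Of the vesicle and transport genes, GOLIM4 and BIN1 had the calls of RBFOX1N against dCasRx, 2 of 49 exons, 1 lower and 1 higher (1.73% of all cassette exons were called). GOLIM4 is a Golgi membrane protein. The 84-nt exon with the GCATG shown above was at 86.2 and 80.6% with dCasRx, 56.1 to 64.3% with RBM25 (median 60.1%) and 54.3, 51.3, 60.7 and 56.6% with RBFOX1N. Both fusions lay far under dCasRx and overlapped. RBFOX1N differed from dCasRx by -27.7 ± 2.69 points (quasi-binomial adjusted p = 0.000173) and RBM25 by -22.98 ± 2.34 (quasi-binomial adjusted p = 0.000437), while the fusions differed by -4.69 ± 2.16 (quasi-binomial adjusted p = 0.23). BIN1, an amphiphysin that bends membranes, had a 129-nt exon at 36.1 and 25.4% with dCasRx, 22.2 to 25.2% with RBM25 (median 23.8%) and 52.6, 45.6, 58.9 and 45.1% with RBFOX1N. RBFOX1N stood over all others, by 19.8 ± 4.53 points to dCasRx (quasi-binomial adjusted p = 0.0437, lost without either dCasRx library, RBFOX1N_NT replicate 1 or RBFOX1N_MAPT replicate 1) and 26.7 ± 2.94 to RBM25 (quasi-binomial adjusted p = 3.87e-05). The 72-nt exon of BIN1, nearest 50% in that gene, was 10.9 ± 3.45 points higher with RBFOX1N than with RBM25, which missed the threshold (quasi-binomial adjusted p = 0.0642).

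EXOC1, a subunit of the exocyst that tethers vesicles, and KIF21A, a kinesin, had exons called only against RBM25, and in both the dCasRx libraries lay over 20 points apart. The 45-nt exon of EXOC1 was at 66.2, 59.7, 58.8 and 61.0% with RBFOX1N and 32.4 to 43.3% with RBM25 (median 38.5%), with dCasRx at 57.2 and 32.97%. RBFOX1N was 23.7 ± 3.90 points over RBM25 (quasi-binomial adjusted p = 0.00146) and 16.3 ± 5.35 over dCasRx (quasi-binomial adjusted p = 0.119). The 124-nt exon of KIF21A was at 59.6, 49.3, 55.0 and 48.2% with RBFOX1N, 21.8 to 34.8% with RBM25 (median 31.2%) and 45.2 and 23.6% with dCasRx. The difference was 23.1 ± 4.63 points to RBM25 (quasi-binomial adjusted p = 0.00408) and 18.7 ± 6.12 to dCasRx (quasi-binomial adjusted p = 0.155). In both genes the low one was dCasRx_NT replicate 2. On the second component of expression both dCasRx libraries stood apart from the rest, replicate 2 the further. EXOC1 also had the 1 exon raised by RBM25: its 110-nt exon was at 82.7 and 83.5% with dCasRx and 91.5 to 94.8% with RBM25, 10.6 ± 2.08 points higher (quasi-binomial adjusted p = 0.00656, lost without either dCasRx library), with RBFOX1N at 88.2 to 93.2%. PICALM, a clathrin adaptor, and the kinesin KIF13A had no called exon. In PICALM 3 of 10 tested exons rose with RBM25 against dCasRx at a quasi-binomial adjusted p under 0.05. These rises, of 4.89 to 9.17 points, were under the 10-point bound. The same exons were 3.70 to 6.60 points higher with RBFOX1N than with dCasRx, at quasi-binomial adjusted p of 0.104 to 0.157. As exons of 1 gene they are not independent, and the same count over all cassette exons is not given here. The 129-nt exon of PICALM was at 27.03 to 34.3% in all libraries, and the 105-nt exon of KIF13A ran from 24.5 to 53.8% on as few as 23 reads.

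The 27 exons called in any effector comparison were mostly alternative: 22 had a mean PSI of 10 to 90% and 5 over 90%. Of the 27, 16 (59.3%) had a length that is a multiple of 3, 0 were microexons, and 7 were skipped by no annotated coding transcript. In 33 genes the exon nearest 50% was the called one in 16 cases. The MAPT guide made no detectable difference to these exons in RBFOX1N cells. By the quasi-binomial test 0 of 335 exons were called, where 0.0% of all cassette exons were, 15 had an unadjusted p under 0.05 (4.48% against 7.23% of all exons), and limma called 0. The largest difference was in the 33-nt exon of NUMB, 60.5% with the MAPT guide and 47.5% with the nontargeting one, at 13.0 ± 5.51 points and a quasi-binomial adjusted p of 1.

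Other kinds of splicing event in the same genes changed rarely. Of 250 tested introns and alternative splice sites, 1 was called for RBFOX1N against dCasRx (0.4%, where 0.919% of all such events were), 2 for RBFOX1N against RBM25 (0.8% against 2.02%) and 2 for RBM25 against dCasRx (0.8% against 0.429%). The 1891-nt intron of ENAH at chr1:225517307-225519197 was retained in 6.09 and 5.51% of reads with dCasRx, 6.0 to 7.97% with RBM25 and 17.2, 22.98, 23.4 and 22.2% with RBFOX1N. RBFOX1N stood apart by 15.7 ± 1.18 points from dCasRx (quasi-binomial adjusted p = 3.46e-05) and 14.7 ± 0.97 from RBM25 (quasi-binomial adjusted p = 2.19e-07). A 1059-nt intron of BIN1 was retained at 14.7, 16.5, 17.0 and 7.79% with RBFOX1N and 0.91 to 7.21% with RBM25, 10.1 ± 2.30 points apart (quasi-binomial adjusted p = 0.0036). An alternative 3′ splice site of TJP1 was used at 12.2 to 18.3% with RBM25 and 2.97 and 5.56% with dCasRx, 10.7 ± 2.06 points apart (quasi-binomial adjusted p = 0.0417), and its partner site makes up the other of the 2 entries.

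The mRNA levels of the listed genes changed little in size. Against dCasRx, RBFOX1N raised MEF2D, MEF2A, INSR and ENAH and lowered CD47 and ADD3. These are 6 of 34 genes (17.6%), where edgeR called 20.1% of all 20593 genes (11.6% higher, 8.47% lower). The median log2 fold change was 0.03 for the 34 genes and -0.02 for all. For RBFOX1N against RBM25 these medians were -0.107 and -0.011, and for RBM25 against dCasRx 0.14 and 0.011. MEF2D was at 55.7 and 49.9 CPM with dCasRx, 56.0 to 72.5 CPM with RBM25 (median 66.5) and 86.5, 91.8, 102.5 and 101.9 CPM with RBFOX1N. Every RBFOX1N library lay above all others, and the log2 fold change was 0.85 ± 0.10 (SE) to dCasRx (edgeR adjusted p = 0.000111) and 0.54 ± 0.07 to RBM25 (edgeR adjusted p = 6.77e-05). RBM25 also raised MEF2D over dCasRx, by 0.32 ± 0.09 (edgeR adjusted p = 0.0367), lost without dCasRx_NT replicate 2, RBM25_NT replicate 1 or either RBM25_CD46 library.

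MEF2A stood at 74.5 and 70.8 CPM with dCasRx, 63.0 to 81.9 CPM with RBM25 and 97.6, 95.7, 90.6 and 89.1 CPM with RBFOX1N. The RBFOX1N libraries were the highest, with a log2 fold change of 0.36 ± 0.10 to dCasRx (edgeR adjusted p = 0.0221), which was lost without dCasRx_NT replicate 2 or any RBFOX1N library. ENAH, with the retained intron, was at 357.5 and 381.7 CPM with dCasRx, 336.9 to 407.2 CPM with RBM25 and 448.7 to 464.5 CPM with RBFOX1N, a log2 fold change of 0.31 ± 0.08 to dCasRx (edgeR adjusted p = 0.0166, lost without either dCasRx library or RBFOX1N_MAPT replicate 1). The RBFOX1N libraries again did not overlap the rest. INSR rose by 0.31 ± 0.08 (edgeR adjusted p = 0.0137), a call lost without dCasRx_NT replicate 2 or RBFOX1N_MAPT replicate 2.

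ADD3 was at 66.3 and 70.0 CPM with dCasRx, 65.8 to 79.2 CPM with RBM25 and 55.4, 51.3, 49.8 and 48.2 CPM with RBFOX1N. It lay under all other libraries, with a log2 fold change of -0.41 ± 0.07 to dCasRx (edgeR adjusted p = 0.00227) and -0.47 ± 0.06 to RBM25 (edgeR adjusted p = 3.44e-05). CD47 was at 41.9 and 50.4 CPM with dCasRx, 40.4 to 47.9 CPM with RBM25 and 31.5 to 35.8 CPM with RBFOX1N, at -0.46 ± 0.09 to dCasRx (edgeR adjusted p = 0.00497, lost without dCasRx_NT replicate 2). Without that library 2 of the 6 calls to dCasRx were left, those of MEF2D and ADD3.

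Against RBM25, 18 of 34 genes (52.9%) differed, 5 higher and 13 lower with RBFOX1N, where edgeR called 39.6% of all genes (20.4% higher, 19.2% lower). The rises were MEF2D, MEF2A, EXOC1, ENAH and INSR. The falls ran from -0.20 ± 0.05 for CTTN to -0.53 ± 0.07 for FN1 on the log2 scale, and the other genes that fell were LIMCH1, ADD3, CD47, BIN1, GOLIM4, APP, CLSTN1, FMNL2, CAMK2G, EPB41L2 and KIF21A. LIMCH1, the gene with no tested exon, was at 7.64 to 9.30 CPM with RBFOX1N, 11.1 to 14.1 CPM with RBM25 and 9.96 and 10.1 CPM with dCasRx. With the nontargeting guide alone 6 genes were called. The calls of CTTN, EPB41L2 and KIF21A were lost without RBFOX1N_NT replicate 2 or RBFOX1N_MAPT replicate 1, and that of INSR without RBM25_CD46 replicate 2, either RBFOX1N_NT library or RBFOX1N_MAPT replicate 2. RBM25 against dCasRx gave 6 calls (17.6%, where edgeR called 15.5% of all genes, 7.31% higher and 8.18% lower): GOLIM4, MEF2D, KIF13A, CLSTN1 and CAMK2G rose by 0.26 to 0.32, and EXOC1 fell by 0.38 on the log2 scale. EXOC1 was at 42.7 and 45.5 CPM with dCasRx, 31.5 to 37.8 CPM with RBM25 and 42.3 to 43.2 CPM with RBFOX1N. Without dCasRx_NT replicate 2, 0 genes were called, and CLSTN1 and CAMK2G were also lost without RBM25_CD46 replicate 1. In bulk libraries fewer cells and less RNA per cell cannot be told apart.

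**Figure D4:**
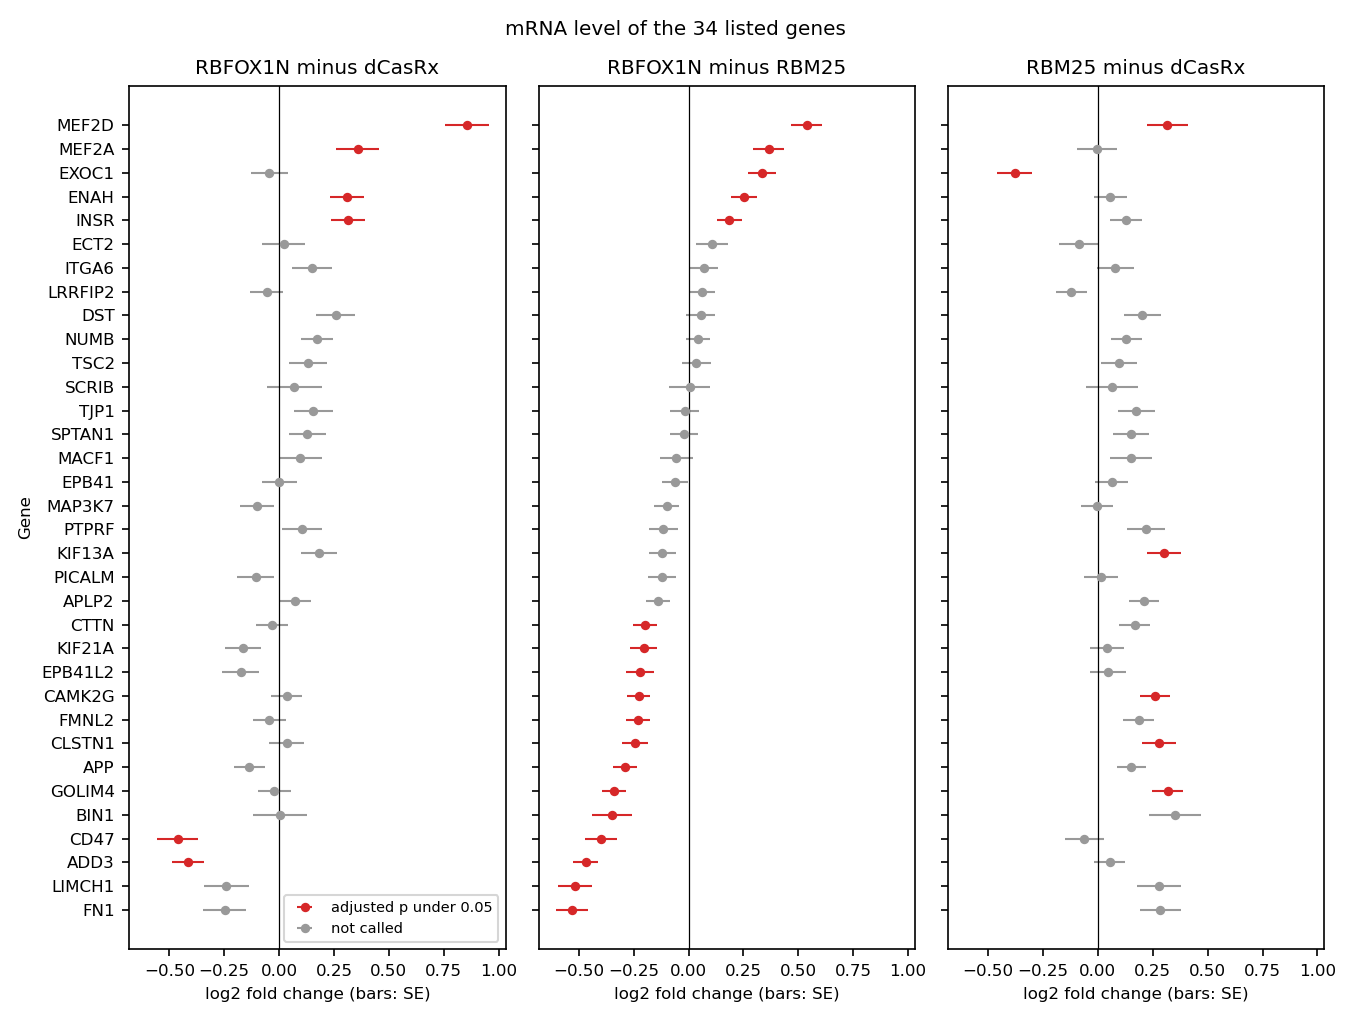
Fitted log2 fold change (x axis, bars are the SE) of the 34 genes (y axis, ordered by the comparison of RBFOX1N with RBM25) in the 3 effector comparisons, with genes called by edgeR in red. MEF2D has the largest rise in the first 2 panels and FN1, LIMCH1 and ADD3 the largest falls in the middle one.

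The MAPT guide changed the level of 0 of 34 genes in RBFOX1N cells by edgeR, where 0.0% of all genes were called. DESeq2 also called 0, and 0 of 34 had an unadjusted p under 0.05, against 2.03% of all genes. The log2 differences ran from -0.17 (CD47) to 0.20 (MEF2D).

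A list of 24 further genes held the RBFOX proteins, members of the large assembly of splicing regulators that RBFOX proteins join, and other regulators of tissue-specific exons. Of these 21 were expressed enough to test. Against dCasRx, RBFOX1N raised NOVA1 by 0.43 and lowered CELF2 (-0.28) on the log2 scale, by edgeR, which called 20.1% of all genes there. Against RBM25, 6 of 21 (28.6%) were called, 2 higher (NOVA1 and ESRP2) and 4 lower (NOVA2, RBFOX2, MBNL2 and CELF2), where 39.6% of all genes were called (20.4% higher, 19.2% lower). RBFOX2, the main RBFOX gene of these cells, was at 159.5 and 154.5 CPM with dCasRx, 169.5 to 201.5 CPM with RBM25 (median 189.6) and 161.5, 156.1, 149.0 and 158.4 CPM with RBFOX1N. The RBM25 libraries lay above all others, with a log2 fold change of 0.27 ± 0.07 to dCasRx (edgeR adjusted p = 0.0155), and RBFOX2 was the 1 gene of 21 (4.76%) called there, where 15.5% of all genes were. RBFOX3 was at 2.28 to 4.39 CPM. The count of MATR3, a member of the assembly, is uncertain, since 2 overlapping entries of the table share its symbol.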

How the data were processed

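Poly(A) libraries of 12 HEK293T samples (6 groups of 2) were sequenced as read pairs, per the labels' protocols. The authors deposited raw read counts per gene and, per splicing event and library, the PSI in percent with a text field of scores and corrected inclusion and exclusion reads, in the vast-tools layout per the file headers. Per the submitters' processing notes, STAR 2.7.10, edgeR and the build hg38 were used, with no role stated. Which annotation and strand setting served for counting is not stated in the labels, so overlapping genes are uncertain. PSI recomputed from the reads lay within 0.05 points of the deposited percent in 100% of values. Exon reads of at least 20 per library limit the precision of single PSI values.

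Splicing was tested with a two-sided quasi-binomial likelihood-ratio F test on the reads of 100386 events of all kinds, with the spread around 6 group means (6 residual degrees of freedom), moderated with limma 3.58.1 (prior degrees of freedom 8.17) and floored at 1. Levels were tested with edgeR 4.0.16 (R 4.3.3; TMM, filterByExpr, quasi-likelihood F test, 20593 genes). P-values were adjusted by Benjamini-Hochberg over all events or genes, in each comparison. CPM values use TMM-scaled library sizes. No replicates of a group matched within sampling noise. Exons were placed on GENCODE 29 (GRCh38).

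Named exons are those called in an effector comparison and, per gene, the tested exon with mean PSI nearest 50%; named genes are those called. For the further gene list, 1 result is not reported here. The members, roles and lists were chosen with earlier results of these data known. Both tests were tried on simulated data first. Alternatives were limma 3.58.1 on logit PSI with and without a replicate block, 50 reads, 3 effector means, the nontargeting guide alone, RLE factors, DESeq2 1.42.0, no filter, and leaving out each library.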

Additional observations from a re-analysis of the deposited data

How the results depend on the processing

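No called exon or gene changed direction in any alternative. For RBFOX1N against dCasRx, the count of 15 called exons became 7 with limma on logit values, 4 with limma and a replicate block, 8 with the nontargeting guide alone, and 7 to 13 without single libraries (lowest without dCasRx_NT replicate 2). For RBFOX1N against RBM25 the count of 19 became 17 to 23 without single libraries and 13 with the replicate block. For RBM25 against dCasRx the count of 6 became 1 with the replicate block and 3 to 7 without single libraries. Events called over all genes fell as well with the replicate block, from 1317 to 408, from 2622 to 1310 and from 819 to 134 in the same order, with limma alone to 615, 1586 and 257, and without dCasRx_NT replicate 2 to 497 and 226 in the comparisons with dCasRx. The count of called genes went from 6 to between 2 and 7 (RBFOX1N against dCasRx) without single libraries, from 18 to 6 with the nontargeting guide alone and between 14 and 20 without single libraries (RBFOX1N against RBM25), and from 6 to 1 with the nontargeting guide alone, 9 with the replicate block in edgeR, 9 with no filter and between 0 and 11 without single libraries (RBM25 against dCasRx). Over all genes the nontargeting guide alone took 4142 calls to 2217, 8148 to 3430 and 3190 to 1570, and leaving out dCasRx_NT replicate 2 took the first to 1291 and the last to 1032. The cause was not tested, though these alternatives have fewer libraries or another error model. For the MAPT guide the counts for the listed genes stayed at 0, and those over all events were 0 to 3. Over named exons 426 recomputed values kept their side of the threshold and 101 no longer passed it; over named levels these were 363 and 51. Same-numbered libraries did not deviate together (correlations of -0.026 to 0.028 over 15 pairs of groups for PSI, with 0 over 0.1, and -0.098 to 0.166 for levels, with 2 over 0.1), so the numbers give no pairing. Depth limits exons with few reads, such as those of MACF1, KIF13A and the 130-nt exon of ITGA6.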

Other observations

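Whether the MAPT guide acted differently in RBFOX1N and RBM25 cells was tested with the effector by guide term of the same quasi-binomial model. Of 335 exons of the listed genes 0 had an adjusted p under 0.05 and 31 (9.25%) an unadjusted p under 0.05. Of the 48824 cassette exons of all genes 3 had an adjusted p under 0.05 and 3459 (7.08%) an unadjusted p under 0.05.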
